A study of Mus musculus with 4 samples.

Results

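The genes described here encode the chains of collagens, laminins and integrins, a set chosen with earlier results of these data known. Within it, genes were taken by symbol. Collagens were Col followed by digits, the letter a and digits. Laminins were Lama, Lamb or Lamc followed by a digit, and integrins were Itga or Itgb followed by digits or by v. The m6A site lists name 49 such genes among 29181 features, and they comprise 27 collagen genes, 8 laminin genes, 8 integrin alpha genes and 6 integrin beta genes. A listed site on the gene's own strand lay inside 40 of the 49, which were 22 collagen, 5 laminin, 7 integrin alpha and 6 integrin beta genes. Few of these sites carry the subunit gene's name in the lists, which often name a neighbouring feature instead: 22.7% did so overall and none of the 83 sites inside Col1a2. Sites were therefore taken by position and strand. A subunit gene that the lists never name has no printed span, so any sites inside it were not counted. The 49 genes are thus not the complete families. The 9 genes without a site were 5 collagen genes (Col9a1, Col10a1, Col12a1, Col14a1 and Col15a1), 3 laminin genes and Itga2. Another 3 names, Itgb1bp1, Itgb1bp2 and Itgb3bp, only begin like an integrin; they are binding proteins and were counted apart.

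Sites of N6-methyladenosine (m6A) were mapped by GLORI in mouse retinal organoids at day 4 of differentiation. In GLORI, glyoxal and nitrite turn unmethylated adenosine into a base that is read as G, so the share of reads that still show A at a position is its level. Of the 4 libraries, 2 came from wild-type organoids of the Rx:GFP line and 2 from the Mettl3 KO Rx:GFP line. Both lines carry the Rx:GFP reporter and were grown with AGN at 0.1 µM, the treatment is recorded as "No" for all 4, and the KO cells also harbour a Dox-inducible HA-METTL3. The Mettl3 KO organoids come from 1 line, so line and genotype cannot be told apart. Nothing in the labels says that the 2 libraries of a group came from separate cultures, so the p-values measure the spread between these libraries, which may be technical.

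Collagens form the fibrils and sheets of the extracellular matrix, and laminins, trimers of an alpha, a beta and a gamma chain, polymerise with type IV collagen into the basement membrane. Integrins, dimers of an alpha and a beta subunit, bind these matrices at the cell surface and couple them to the cytoskeleton. The neural retina arises from an epithelium that rests on such a basement membrane.

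The lists ran to 227298 and 288516 positions for wild type and 230299 and 215850 for Mettl3 KO. No listed site had a coverage (reads showing A or G) under 15, fewer than 5 reads with A, a level under 0.1 or a p-value over 0.004, so a site that is not listed may have been converted, thinly covered or not significant. Mettl3 itself, which encodes the methyltransferase of the writer complex, had 18 and 15 listed sites in wild type and 20 and 21 in KO, and its coverage relative to the median gene was 1.07 and 0.879 against 1.24 and 1.08 (log2 change 0.30, adjusted p = 0.362, limma). Which exons the knockout removes is not given in the sources used here, so these values do not check the labels. Of the eye field markers, Rax had 20 and 35 sites in wild type and 0 in both KO lists, and Six3 coverage was 17.3 and 19.3 times the median gene in wild type against 1.92 and 2.54 times in KO. Pax6, an eye field marker that other neural tissue also expresses, had 48 and 70 sites against 47 and 44 and did not pass the test of coverage (2.35 and 2.45 against 2.77 and 2.31 times the median gene, log2 change 0.12, adjusted p = 0.733, limma). Mesoderm and endothelium markers were at or near 0 in all lists: T, Mixl1, Pecam1 and Cdh5 had no site and Tbx6 had 1 in 1 library. Markers of primitive and parietal endoderm (Gata4, Sox7 and Foxa2) had 3 and 2 sites in wild type and 0 in KO, and those of neural crest (Sox10 and Foxd3) had 1 and 4 in wild type and 7 in each KO list.

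The lists name genes by positions of their own frame. Of their sites, 84.1% lay inside the gene spans printed in the lists and 27.1% inside the GRCm38 spans of the same 13167 protein-coding genes, although the submitters' processing notes name mm10. Site positions below are therefore given as the lists print them, and they should not be set against the promoter positions, which are in GRCm38.p6.

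The promoters of 4 subunit genes are shown from RefSeq, 250 bases before to 50 after the gene start. Col4a1 and Col4a2, neither of which passed a test, are shown because they encode the 2 main chains of basement membrane collagen and are transcribed in opposite directions from a common stretch; their windows share 78 bases, which stand in capitals, and their spans in the lists overlap by 22 bases. The Col4a1 window is chr8:11312777-11313076 on the minus strand and the Col4a2 window is chr8:11312555-11312854 on the plus strand, and each is written 5′ to 3′ on its own strand.
Col4a1: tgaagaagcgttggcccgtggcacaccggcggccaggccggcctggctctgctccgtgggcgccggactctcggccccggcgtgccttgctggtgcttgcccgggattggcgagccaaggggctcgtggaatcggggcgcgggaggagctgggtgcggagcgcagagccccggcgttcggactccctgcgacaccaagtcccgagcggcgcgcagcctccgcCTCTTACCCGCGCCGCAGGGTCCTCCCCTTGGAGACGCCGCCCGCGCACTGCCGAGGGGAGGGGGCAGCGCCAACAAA
Col4a2: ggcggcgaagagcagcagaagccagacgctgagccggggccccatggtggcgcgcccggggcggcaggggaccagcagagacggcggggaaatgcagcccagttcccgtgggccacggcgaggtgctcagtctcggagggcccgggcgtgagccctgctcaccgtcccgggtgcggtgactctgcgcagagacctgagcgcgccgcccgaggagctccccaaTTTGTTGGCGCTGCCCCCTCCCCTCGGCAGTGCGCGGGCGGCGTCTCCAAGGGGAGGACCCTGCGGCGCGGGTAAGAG
Col1a2 and Itgb5 are shown because they are, among the genes that passed the test of site number, the one with the largest fall and the one that rose. The Col1a2 window is chr6:4505368-4505667 and the Itgb5 window chr16:33829415-33829714, both on the plus strand, with capitals marking CCAAT and GGGCGG on either strand.
Col1a2: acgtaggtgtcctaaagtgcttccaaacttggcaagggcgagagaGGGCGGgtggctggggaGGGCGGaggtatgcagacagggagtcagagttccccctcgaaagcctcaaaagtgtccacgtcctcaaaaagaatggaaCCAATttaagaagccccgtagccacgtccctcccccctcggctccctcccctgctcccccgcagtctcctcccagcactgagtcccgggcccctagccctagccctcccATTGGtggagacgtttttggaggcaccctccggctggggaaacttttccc
Itgb5: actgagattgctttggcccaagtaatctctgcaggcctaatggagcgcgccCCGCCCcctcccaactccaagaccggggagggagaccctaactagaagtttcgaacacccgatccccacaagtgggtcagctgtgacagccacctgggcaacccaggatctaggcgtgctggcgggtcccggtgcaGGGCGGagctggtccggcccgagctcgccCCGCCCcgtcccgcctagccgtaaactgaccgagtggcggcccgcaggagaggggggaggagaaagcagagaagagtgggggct
The Col1a2 window holds 2 matches to CCAAT and 2 to GGGCGG, and the Itgb5 window holds 0 and 3; of 32851 mouse promoter windows of the same length, 37.4% hold CCAAT and 35.7% hold GGGCGG on either strand. A match describes the letters of the window only. Of the 49 members, 37 had a promoter window in the RefSeq table; Lama1 was not among them.

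Site number was compared first. In sum, the subunit genes held 533 and 763 listed sites in wild type and 534 and 484 in Mettl3 KO. The second wild-type library was the highest and the groups overlapped, since the first wild-type library lay below one of the KO libraries by 1 site. The KO mean was 0.785 of the wild-type mean (exact two-sided permutation test over the 4 libraries, p = 0.667; the smallest p that 2 against 2 allows is 0.333). Over all genes this ratio was 0.874. Collagens held 253 and 342 sites in wild type and 248 and 233 in KO, laminins 173 and 277 against 185 and 143, and integrins 107 and 144 against 101 and 108. The collagen groups did not overlap, though by 5 sites, while those of the laminins and integrins did. That gap rests on 1 gene, Col1a2, which held 28 and 55 of the wild-type sites and 0 in both KO lists.

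Across genes, sites were unevenly spread. The 5 genes with the most sites, Col18a1, Col4a1, Lama5, Lamc1 and Itgb1, held 53.2% of the 2314 sites summed over the lists (1230 sites). At the other end, 13 genes had between 1 and 9 sites in all 4 lists together, too few to enter the test. The test of site number per gene (edgeR quasi-likelihood, Benjamini-Hochberg adjustment over 10759 genes with at least 10 sites) took in 27 subunit genes: 16 collagen, 5 laminin and 6 integrin genes.

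Of these 27, 2 fell and 1 rose in the Mettl3 KO libraries, against 1.41% of all genes tested that fell and 1.12% that rose (2.53% in either direction). At an unadjusted p under 0.05 there were 3 lower and 2 higher, against 14.1% of all genes in either direction. By sign alone, 14 of the 27 were lower and 13 higher, and the median log2 change was -0.0015 against 0.00055 over all genes tested. The genes that fell were Col1a2 and Lama1, and the gene that rose was Itgb5. How many of all genes had site numbers that do not overlap between the groups was not counted. For coverage relative to the median gene, 32.3% of all genes were lower and 20.3% higher in KO without overlap. A lack of overlap in the genes below is therefore a description only.

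**Figure D1:**
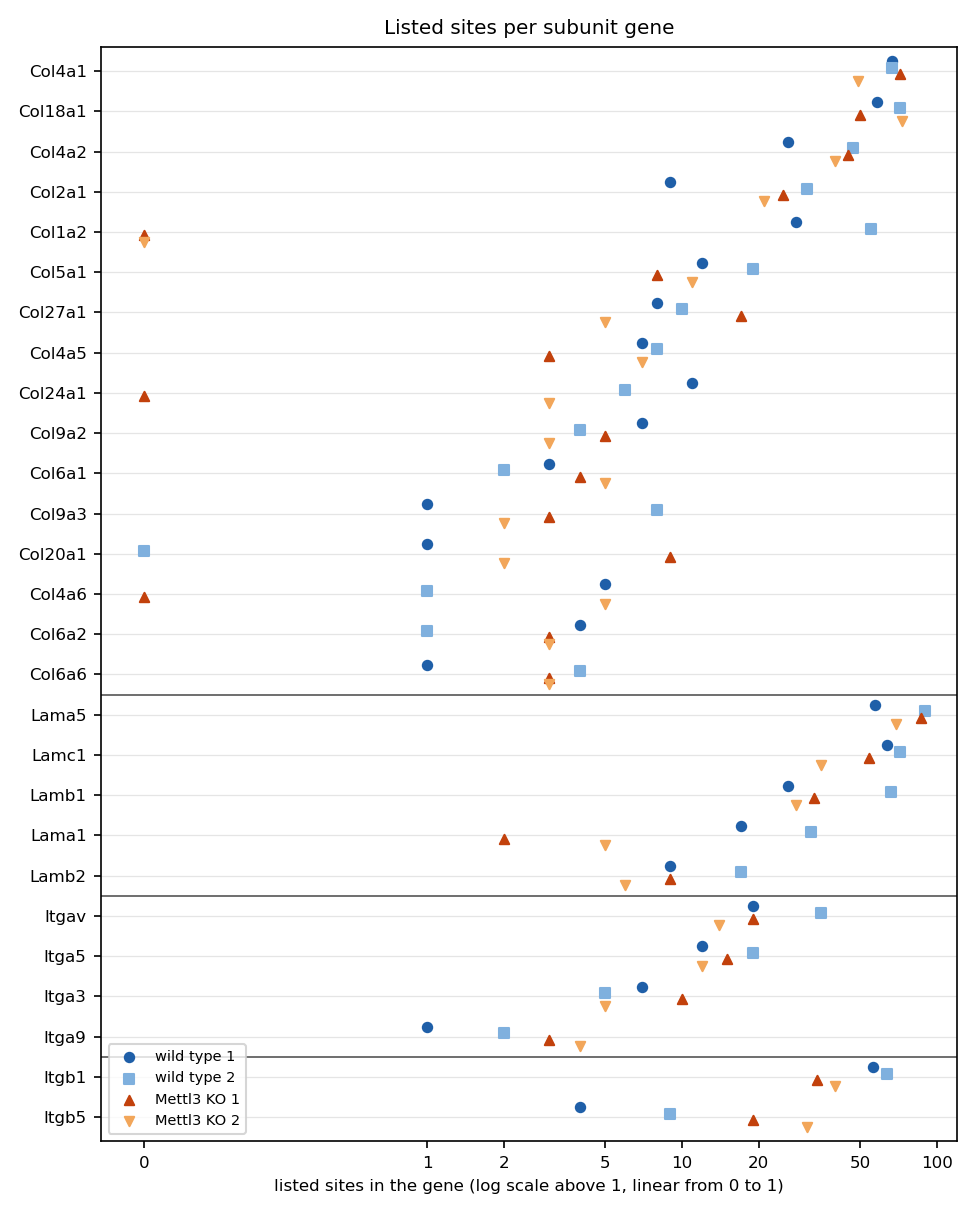
Listed sites in each of the 27 tested subunit genes (rows, grouped as collagen, laminin, integrin alpha and integrin beta) in the 2 wild-type and 2 Mettl3 KO libraries, on an axis that is logarithmic above 1 and linear from 0 to 1. Col1a2 sits at 28 and 55 in wild type and at 0 in both KO libraries, and Lama1 is lower and Itgb5 higher in both KO libraries.

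Among the fibrillar collagens, Col1a2, the alpha 2 chain of type I collagen, the main fibril of connective tissue, had 28 and 55 sites in the wild-type lists and 0 in both KO lists. The groups did not overlap. Counted against a floor of 3 sites per library, Col1a2 was at least 13.8-fold lower in KO (adjusted p = 4.08e-14, edgeR quasi-likelihood test; 0.501 without the second KO library, when no gene of any kind passed). Its gene coverage was 43.3 and 53.9 in wild type, and with no listed site the KO lists give no coverage for it. No KO value therefore separates fewer transcripts from fewer methylated positions, and in bulk organoids fewer cells of a type and less RNA per cell cannot be told apart. The median level of its sites was 0.238 and 0.24, and 5 positions were shared by both wild-type lists. Of those 5, 3 lay within 1000 bases of the 3′ end of the gene: at 608, 402 and 326 bases from it, the levels were 0.238 and 0.356, 0.551 and 0.409, and 0.306 and 0.349. The lists mark all 5 positions as intronic. Since no site inside Col1a2 carries its name in the lists, the mark may refer to another feature, and it was not checked.

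Col2a1, the chain of cartilage and vitreous type II collagen, had 9 and 31 sites in wild type and 25 and 21 in KO. The spread between the wild-type libraries was wider than any distance between the groups (log2 change 0.41 ± 0.40 SE, adjusted p = 0.722, edgeR). Its coverage, the lists' value per gene, was 34.0 and 38 against 30.9 and 33.6. Col27a1, a fibrillar collagen of cartilage, had 8 and 10 sites against 17 and 5, so its KO libraries lay on both sides of wild type. Its coverage was 29.6 and 29.1 in wild type and 38.6 and 38 in KO, higher in both KO libraries, with a log2 change of 0.50 ± 0.18 that did not pass the test (adjusted p = 0.128, limma). Col5a1, a chain of type V collagen that regulates fibril size, had 12 and 19 sites against 8 and 11. Col24a1 had 11 and 6 sites against 0 and 3, without overlap and without passing the test (log2 change -2.25 ± 0.93, adjusted p = 0.209, edgeR). Col11a1 and Col11a2 together gave 3 sites, all in wild type.

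No chain of type IV collagen, the sheet-forming collagen of basement membranes, passed the test of site number. Col4a1 had 67 sites in each wild-type list and 72 and 49 in the KO lists (log2 change 0.03 ± 0.24, adjusted p = 0.972, edgeR). Col4a2 had 26 and 47 against 45 and 40 (0.42 ± 0.30, adjusted p = 0.585). Both pairs of groups overlapped. Col4a5 had 7 and 8 sites against 3 and 7, and Col4a6 had 5 and 1 against 0 and 5.

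The gene coverage of the type IV chains did not pass the test either. Col4a1 coverage was 75.6 and 90.2 in wild type and 77.7 and 54.3 in KO (log2 change -0.23 ± 0.18 SE, adjusted p = 0.478, limma). Relative to the median gene, the Col4a1 values were 1.59 and 1.73 against 1.55 and 1.21, lower in both KO libraries, whereas as listed they overlap. Col4a2 coverage was 57.0 and 54.3 against 60.9 and 50.6 (0.11 ± 0.18, adjusted p = 0.759, limma, or -0.0032 with no centring). Across the 4 libraries the coverage of Col4a1, whose transcription start adjoins that of Col4a2, was above that of Col4a2, by the narrowest margin in the second KO library.

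Of the other collagens, Col18a1, a basement membrane collagen whose cleaved end is endostatin, had 58 and 72 sites in wild type and 50 and 73 in KO, the widest range being within KO (log2 change 0.12 ± 0.24, adjusted p = 0.905, edgeR). Its coverage was 120 and 170 against 133 and 102. Col9a2, a chain of type IX collagen, which decorates type II fibrils, had 7 and 4 sites against 5 and 3 and a coverage of 58.9 and 52.7 against 60.9 and 68.2. As listed, that coverage was higher in both KO libraries, while relative to the median gene the groups overlapped, since the first KO library (1.21) lay under the first wild-type library (1.24; log2 change 0.32 ± 0.20, adjusted p = 0.362, limma). Type VI collagen forms beaded filaments near basement membranes: Col6a1 had 3 and 2 sites against 4 and 5, and Col6a2 had 4 and 1 against 3 in each KO list. The coverage of Col6a2 was 24.1 and 27.3 in wild type and 38.3 and 30.5 in KO, without overlap, with a log2 change of 0.53 ± 0.17 and an adjusted p of 0.092 (limma). Col22a1 had 3 and 4 sites in wild type and 0 in both KO lists, too few to be tested, and Col20a1 had 1 and 0 against 9 and 2 (3.32 ± 1.26, adjusted p = 0.148, edgeR).

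Among the laminin alpha chains, Lama1, the chain of the laminin found in early embryonic basement membranes, had 17 and 32 sites in wild type and 2 and 5 in KO. The groups did not overlap. The log2 change was -2.56 ± 0.59 SE (adjusted p = 0.00197, edgeR quasi-likelihood test). Its coverage was 35.5 and 31.5 in wild type against 24.3 and 24.6 in KO, also without overlap, but the log2 change in coverage of -0.34 ± 0.19 did not pass the test (adjusted p = 0.320, limma). With each library's gene coverage as an offset in the fit of site number, the log2 change of Lama1 was -2.12 (adjusted p = 0.201, edgeR), and with DESeq2 it was -2.59 (adjusted p = 0.191). Left out in turn, the second wild-type library gave -2.24 (adjusted p = 0.309), the first KO library -2.03 (0.112) and the second KO library -3.38 (0.501). No position of Lama1 was shared by the wild-type lists. The median level of its sites was 0.316 and 0.309 in wild type and 0.282 and 1.00 in KO. Positions 68117435 and 68129505 were in the second wild-type and the second KO list. Their levels were 0.276 and 0.148 in the former and 1.00 at both in the latter, from 38 and 15 reads. Markers of primitive and parietal endoderm, which makes much Lama1, summed to 3 and 2 sites in wild type and 0 in both KO lists, and their part in the change was not tested.

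Lama5, the alpha chain of later and widely expressed laminins, had 57 and 90 sites in wild type and 87 and 69 in KO, within the wild-type range (0.28 ± 0.23, adjusted p = 0.642, edgeR). Lama5 also had the densest sites of the named genes. Averaged over the 4 lists, it had 15.3 sites per list in each 10 kb of its span, against 10.2 in Itgb1 and 5.57 in Col4a1. Its coverage was 37.7 and 47.4 against 48.1 and 44.4, which overlap as listed. Relative to the median gene, the Lama5 values were 0.795 and 0.908 against 0.957 and 0.993. These do not overlap, and the log2 change of 0.24 ± 0.17 did not pass the test (adjusted p = 0.434, limma). Lamb1, the beta chain that pairs with both, had 26 and 66 sites against 33 and 28, and Lamb2, a beta chain of mature basement membranes, had 9 and 17 against 9 and 6. Lamc1, the gamma chain shared by most laminins, had 64 and 72 sites against 54 and 35. The Lamc1 groups did not overlap, and the log2 change of -0.43 ± 0.26 did not pass the test (adjusted p = 0.483, edgeR). Lamc1 coverage was 85.2 and 125 in wild type and 84.4 and 75.0 in KO (-0.26 ± 0.18, adjusted p = 0.427, limma). Lamb1 coverage was 43.7 and 61.0 against 41.8 and 38.5, and, like that of Lamc1, it was lower in both KO libraries.

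Of the integrin alpha subunits, Itga5, the partner of beta 1 in the fibronectin receptor, had 12 and 19 sites in wild type and 15 and 12 in KO (-0.0015 ± 0.47, adjusted p = 1.00, edgeR). Itga3, a subunit of a laminin receptor, had 7 and 5 against 10 and 5, with a coverage of 24.6 and 36.2 in wild type and 37.8 and 39.4 in KO (0.49 ± 0.19, adjusted p = 0.160, limma). Itgav, the subunit of receptors for vitronectin and related ligands, had 19 and 35 sites against 19 and 14, and its coverage of 33.3 and 33.1 against 31.4 and 30.2 was lower in both KO libraries as listed. Relative to the median gene, the scale of the test, the Itgav values were 0.703 and 0.635 against 0.625 and 0.675, which overlap (log2 change 0.0018 ± 0.18, adjusted p = 0.996, limma, or -0.11 with no centring). Itga9 had 1 and 2 sites against 3 and 4. Itga10 had 2 sites in each wild-type list and Itga7 had 1, and neither had any in KO, at numbers too low for the test.

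Of the integrin beta subunits, Itgb1, the common partner of most matrix-binding alpha subunits, had 56 and 64 sites in wild type and 34 and 40 in KO. The groups did not overlap, but the log2 change of -0.51 ± 0.28 did not pass the test (adjusted p = 0.407, edgeR). Itgb1 had the highest coverage of all subunit genes, 219 and 304 in wild type and 295 and 224 in KO, and the groups overlapped (log2 change 0.11 ± 0.18, adjusted p = 0.763, limma, or -0.0020 with no centring).

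Itgb5, which pairs with the alpha v subunit, was the subunit gene that rose in both measures. It had 4 and 9 sites in wild type and 19 and 31 in KO, without overlap (log2 change 2.13 ± 0.50 SE, adjusted p = 0.00301, edgeR). Its coverage was 24.1 and 27.2 in wild type and 44.3 and 38.8 in KO, also without overlap (0.81 ± 0.17, adjusted p = 0.0191, limma). With gene coverage as an offset the log2 change in site number was 1.48 (adjusted p = 0.384, edgeR), and with DESeq2 it was 2.16 (adjusted p = 0.202). It was 1.78 and 2.61 without the first and second wild-type library (adjusted p = 0.180 and 0.0577) and 1.68 without the second KO library (0.501). The coverage call was lost when any 1 of the 4 libraries was left out (adjusted p from 0.0511 to 0.137) and with no centring on the median gene (0.0996). The median level of Itgb5 sites was 0.345 and 0.261 in wild type and 0.227 and 0.294 in KO. None of its positions was shared by the wild-type lists and 3 were shared by the KO lists, at 1461, 532 and 38797 bases from the 3′ end, with levels of 0.102 and 0.152, 0.50 and 0.286, and 0.179 and 0.265. Itgb8, a further partner of alpha v, had 4 sites in each wild-type list and 0 in both KO lists, which was too few for the test; its coverage in wild type was 29.0 and 20.4.

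Over the 22 subunit genes with a coverage in all 4 lists, Itgb5 was the 1 gene that rose and none fell (limma, adjusted over 9355 genes), against 2.21% of all genes that rose and 2.50% that fell (4.71% in either direction). At an unadjusted p under 0.05, 4 were higher and 0 lower, against 22.3% of all genes in either direction. By sign, 13 were higher and 9 lower, or 9 higher and 13 lower with no centring, with a median log2 change of 0.07 against -0.02 over all genes. With no centring on the median gene the median over all genes moved by -0.11, to -0.14, and that of the subunit genes to -0.04; 284 genes then fell and 94 rose, against 234 and 207 with centring. Groups did not overlap, relative to the median gene, in 6 genes that were higher and 4 that were lower in KO; over all genes these were 20.3% and 32.3%. The lists give no coverage under 15, which narrows any fold for genes near that value. A gene without a listed site in a KO list has no coverage there, so its fall could not be called. Col1a2, Col22a1 and Itgb8 had a coverage in both wild-type lists and in neither KO list, and were not tested. When the first wild-type library was left out, Itga9 passed the test as higher (log2 change 0.88 ± 0.27, adjusted p = 0.0311, limma), since its wild-type coverage was 32.3 in that library and 16.3 in the other. Among the names that only begin like an integrin, Itgb3bp, a centromere protein, had a coverage of 45.4 and 49.7 in wild type and 28.1 and 20.5 in KO (-0.87 ± 0.17, adjusted p = 0.0170, limma).

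**Figure D2:**
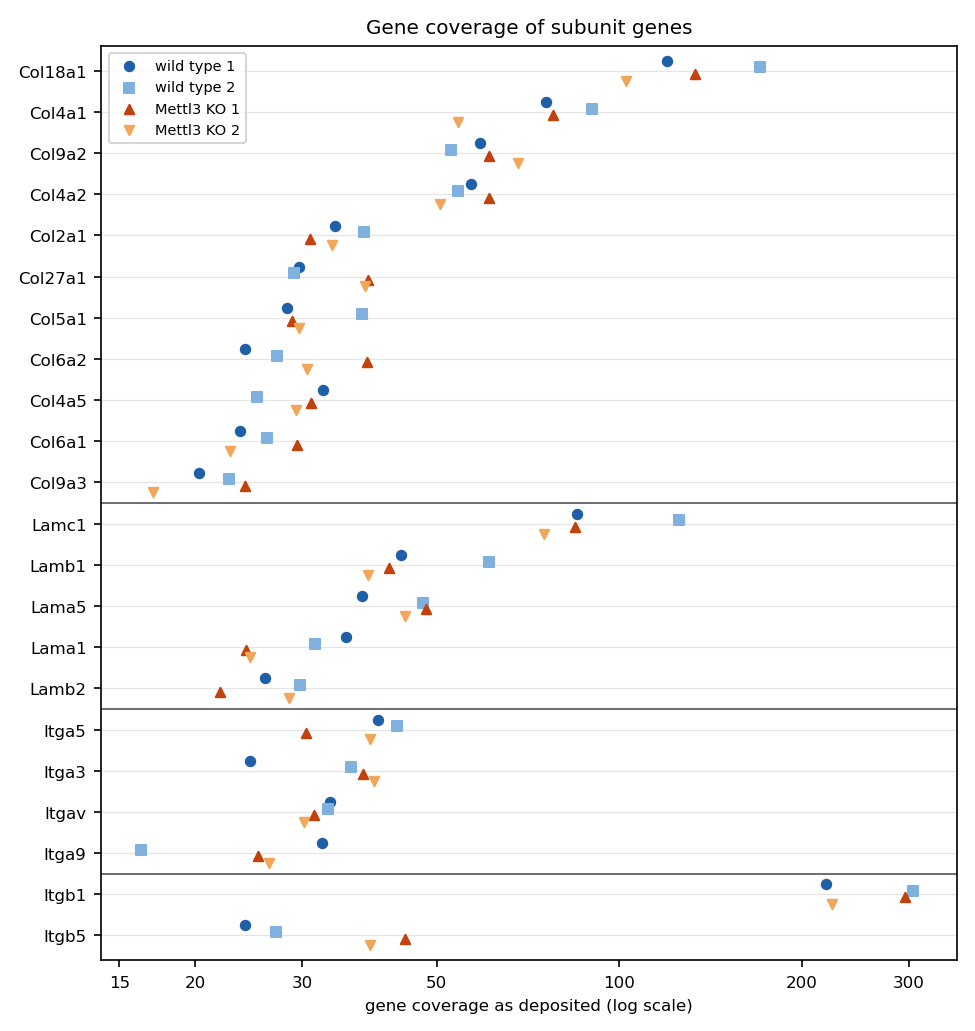
Gene coverage as the lists give it (logarithmic axis) for the 22 subunit genes with a value in all 4 libraries, with 1 symbol for each library. Itgb1 and Col18a1 stand highest, and Itgb5 is the gene whose KO libraries lie farthest above wild type, at 44.3 and 38.8 against 24.1 and 27.2.

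**Figure D3:**
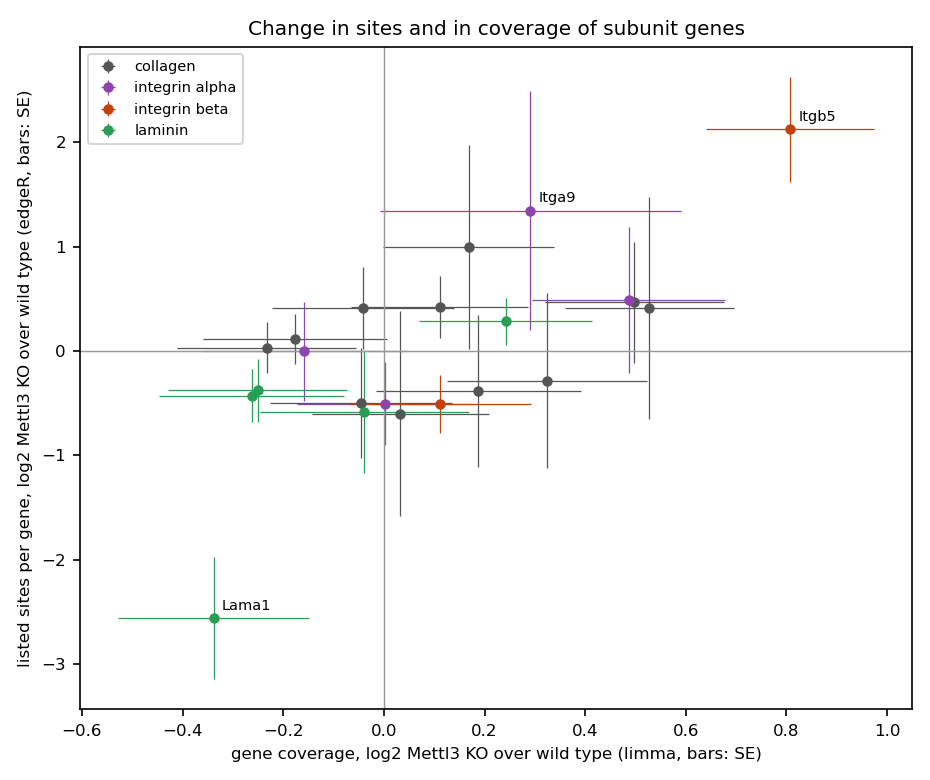
Log2 change of listed sites per gene (vertical) against log2 change of gene coverage (horizontal), both Mettl3 KO over wild type, for the 22 subunit genes in both tests; points are genes coloured by family and bars are standard errors. Itgb5 lies at 0.81 and 2.13 and Lama1 at -0.34 and -2.56, apart from the other genes; Col1a2 has no coverage in KO and is not drawn.

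Genes that work with these subunits were counted from lists of partners. The shares of all genes given above, 2.53% in site number and 4.71% in coverage, are the background for each list, and lists this short allow few calls at such shares. Of 5 basement membrane partners tested, none passed in site number, and in coverage Sparc, a collagen-binding matrix protein, fell: 6.51 and 6.87 times the median gene in wild type and 2.10 and 2.04 times in KO, a log2 change of -1.65 ± 0.17 (adjusted p = 2.79e-04, limma). Its listed sites went the other way, 13 and 16 in wild type and 22 and 27 in KO, without passing the test (log2 change 0.94 ± 0.42, unadjusted p = 0.0246, adjusted p = 0.257, edgeR). Fn1, which encodes fibronectin, had a coverage of 1.17 and 1.34 times the median gene against 0.731 and 0.804 (adjusted p = 0.0505, limma). Of 12 tested genes that hydroxylate, fold or crosslink collagen, none passed in either measure; Serpinh1, the collagen chaperone, had 6.90 and 7.84 against 5.18 and 4.06 times the median gene (adjusted p = 0.063). Of 10 tested genes of integrin adhesions, none passed; Ilk, the integrin-linked kinase, had 3.22 and 3.09 against 2.36 and 1.71 times the median gene (adjusted p = 0.085). Eye field markers fell beside these genes, 3 of 4 tested in site number and 2 of 3 in coverage, against 1.41% and 2.50% of all genes. Of 4 neural progenitor genes tested, 1 fell in coverage: Sox2, also expressed in pluripotent cells, went from 12.8 and 13.8 to 8.50 and 6.58 times the median gene (log2 change -0.79 ± 0.18, adjusted p = 0.0289, limma). Sites in pluripotent markers summed to 28 and 30 in wild type and 14 and 13 in KO, and 0 of 3 tested passed in site number. The part of these markers in the changes of Col1a2, Lama1 and Itgb5 was not tested.

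The level of the sites was compared next. The median level of listed subunit sites was 0.254 and 0.250 in wild type and 0.217 and 0.242 in KO. Both KO libraries were lower, and the KO mean minus the wild-type mean was -0.0226 (exact two-sided permutation test, p = 0.333, the smallest the design allows). Over all genes this difference was -0.0218, and the median coverage of subunit sites was 35 and 43 against 38 and 36.

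Well covered sites at high level were counted separately. Subunit sites covered by 50 or more reads whose level reached 0.3 numbered 29 and 47 in wild type and 22 and 15 in KO. The groups did not overlap, and the KO mean was 0.487 of the wild-type mean (18.5 ± 4.9 against 38 ± 12.7, SD, n = 2; exact permutation p = 0.333). Over all genes the ratio was 0.441. With a coverage of at least 100 the subunit sites numbered 9 and 25 against 5 and 3, at a ratio of 0.235, against 0.209 over all genes. In contrast, at a level of at least 0.5 the subunit genes had 5 and 17 sites against 9 and 7, which overlapped, at a ratio of 0.727; over all genes that ratio was 0.257.

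**Figure D4:**
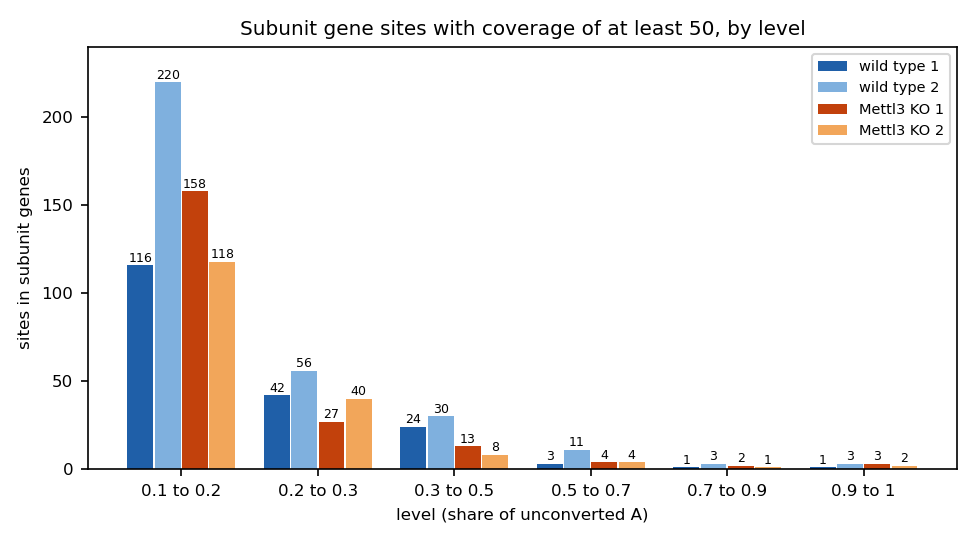
Number of subunit gene sites with a coverage of at least 50 (bars from 0, with the number above each) by level, for the 2 wild-type and 2 Mettl3 KO libraries. Between 0.3 and 0.5 there were 24 and 30 sites in wild type and 13 and 8 in KO, while above 0.5 the libraries overlapped.

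The sites at a level of at least 0.5 were also counted by how many lists held them. In the first wild-type library, 4 of the 5 were also in another list, against 1 of 7 in the second KO library and 3 of 9 in the first. In the first KO library they lay in Col2a1 (3 sites), Col27a1, Col4a1, Col6a6, Itga2b, Itga5 and Itgb1, and in the second in Lamb2 (3 sites), Col2a1 (2 sites), Col6a6 and Itgb5. The 3 Lamb2 sites lay close together, at positions 108365271, 108365292 and 108365298 of chromosome 9, each with 58 reads, so they may share reads. The same holds for Col2a1 positions 97897884 and 97897888 in the first KO library, each with 29 of 55 reads showing A. Close pairs were also listed in the second wild-type library, such as 68116953 and 68116961 in Lama1 and 83636420 and 83636429 in Itgav. In the second wild-type library, 12 of the 17 stood in that list alone.

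Sites found in both libraries of a genotype were then taken. Of 2119 distinct positions in the subunit genes, 1953 (92.2%) were in 1 list, 143 in 2, 17 in 3 and 6 in all 4; over all genes 92.0% were in 1 list. The wild-type lists shared 70 positions, which is 13.1% of the first list and 9.17% of the second. The KO lists shared 31, or 5.81% and 6.40%, and a wild-type and a KO list shared between 27 and 45. The 70 positions fell in 17 genes, most of all in Col18a1 (13), Col4a1 (10), Itgb1 (9), Lamc1 (9), Col4a2 (6) and Col1a2 (5).

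With a coverage of at least 20 in both wild-type lists, 64 positions remained, and 51 of them (79.7%, 95% Wilson interval 68.3 to 87.7%) were in neither KO list. Over all genes the share was 83.1% of 22902. In the reverse direction, 14 of 27 positions shared by the KO lists (51.9%, 34.0 to 69.3%) were in neither wild-type list, against 72.1% over all genes. These intervals cover counting error only. Where the wild-type coverage, scaled by the ratio of gene coverage, predicted at least 50 reads in both KO libraries, 31 of 40 wild-type positions (77.5%) were in neither KO list. At that limit the share over all genes was 80.5% of 13100.

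Among well covered positions at high level the sets were small. In all, 12 positions had 50 or more reads and reached a level of 0.3 in both wild-type lists, and 10 of them (83.3%, 55.2 to 95.3%) were in neither KO list; over all genes the share was 85.2%. The 10 lay in Col18a1, Col4a1, Col4a2, Lamc1 and Itgb1. Their coverage predicted for KO ran from 39.2 to 308 reads and was at least 50 in both KO libraries at 9 of the 10. A position that was not listed with such a coverage had a level under 0.1, fewer reads than predicted or a p-value above the limit, and the lists do not say which.

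**Figure D5:**
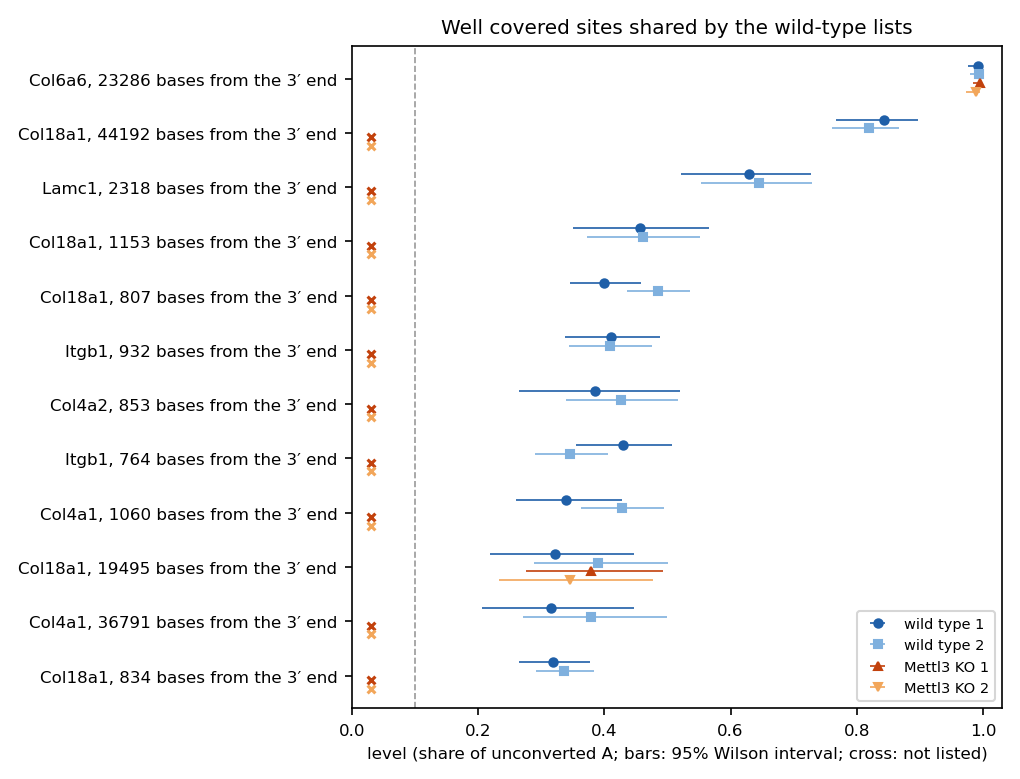
Level (share of reads with A, with 95% Wilson intervals) at the 12 positions that had 50 or more reads and reached 0.3 in both wild-type lists, named by gene and distance from the gene's 3′ end; a cross marks a position that a KO list does not hold and the dashed line is the lists' minimum level of 0.1. The wild-type libraries lie within 0.088 of each other at the 10 positions absent from both KO lists, and the Col6a6 position and 1 Col18a1 position have all 4 values.

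In Col18a1, on the minus strand of chromosome 10, the position with the highest such level was 76932204, 44192 bases from the 3′ end, where 102 of 121 reads and 168 of 205 reads showed A (levels 0.843 and 0.820). A close neighbour at 76932218 had levels of 0.151 and 0.359. Both were absent from the KO lists, where 147 and 113 reads were predicted at the first. Close to the 3′ end, positions 76888819, 76888846 and 76889165 had levels of 0.40 and 0.485, 0.318 and 0.336, and 0.456 and 0.461, and none was in a KO list. The lists mark none of these as intronic.

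In Lamc1, on the minus strand of chromosome 1, position 153096986 lay 2318 bases from the 3′ end and had levels of 0.630 and 0.645 from 81 and 110 reads; 77.2 and 68.6 reads were predicted in KO, and it was in neither list. The deepest shared position of the group, 153096163 in the same gene, had 557 and 982 reads and levels of 0.127 and 0.168, just above the lists' minimum, with 607 and 539 reads predicted in KO; it too was in neither KO list. In Itgb1, on the plus strand of chromosome 8, positions 129458749 and 129458917 lay 932 and 764 bases from the 3′ end, with levels of 0.411 and 0.408 and of 0.429 and 0.346. The lists mark both Itgb1 positions as intronic, and neither was in a KO list although at least 162 reads were predicted at each. Every Itgb1 position in 2 or more lists carries that mark, and no such position of Col18a1 or Col4a1 does, near the 3′ end or far from it. The mark therefore does not tell exon from intron within these genes. In the type IV collagen pair, Col4a2 position 11498434, 853 bases from its 3′ end, had levels of 0.385 and 0.426, and Col4a1 position 11249483, 1060 bases from its own, had 0.339 and 0.427.

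The distance to the 3′ end of the gene, as the lists give it, was set beside this. Of the 70 positions shared by the wild-type lists, 27 (38.6%, 28.0 to 50.3%) were within 1000 bases of the 3′ end. The other counts were 327 of 1953 positions in 1 list (16.7%) and 5 of 31 shared by the KO lists (16.1%, 7.09 to 32.6%). Over all genes, with a site inside several features counted at its nearest 3′ end, the shares were 33.2%, 20.2% and 25.7%. Col18a1 gave 7 of the 27 and Itgb1 gave 5.

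At the 6 subunit positions with a coverage of at least 20 in all 4 lists, the level did not pass the test in either direction (edgeR quasi-likelihood test on reads with and without A, 1557 positions; 0 of 6 also at an unadjusted p under 0.05 and with limma on log odds). Of all positions tested, 2.63% fell and 0.00% rose, and 7.64% had an unadjusted p under 0.05 in either direction. To be in all 4 lists a position must keep a level of at least 0.1 in KO, so these 6 are not a sample of the wild-type sites. In Col18a1, position 76907507 had levels of 0.323 and 0.390 in wild type and 0.378 and 0.345 in KO, the 4 values overlapping. In Lamb1, position 31337591 on chromosome 12 had 0.165 and 0.188 against 0.160 and 0.216. In Col4a2, position 11499014 had 0.100 and 0.144 against 0.125 and 0.141, at 339, 250, 424 and 170 reads. In Lama5, position 179835772 on chromosome 2 had 0.134 and 0.153 in wild type and 0.303 and 0.160 in KO, higher in both KO libraries but by little in the second (adjusted p = 0.737).

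The other 2 positions were close to fully unconverted in every library. In Col6a6, a chain of type VI collagen, position 105588294 on chromosome 9 had levels of 0.992 and 0.994 in wild type and 0.996 and 0.989 in KO, from 350 to 476 reads, and the lists mark it as intronic. In Itga2b, the platelet integrin subunit, position 102355229 on chromosome 11 had a level of 1.00 in all 4 lists, from 30 to 58 reads. Itga2b had this 1 site in each list, and Col6a6 had 1 to 4 sites a list.

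The share of converted A per gene, a measure of how complete the treatment was, had a median over the 22 subunit genes with coverage of 95.7% and 95.9% in wild type and 97.1% and 95.6% in KO. The groups overlapped. Lama5, for example, had 96.0% in each wild-type library and 97.1% and 97.2% in KO, while Col1a2 had 96.6% in both wild-type libraries.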

How the data were processed

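Each library has 1 list of sites. Per the file headers, the authors' lists give for each position a count of reads showing A or G (the coverage), a count of those showing A, the level as a fraction (A reads over coverage), a conversion fraction per gene, a gene coverage signal and a p-value with its adjusted value. The submitters' processing notes name mm10; the aligner, the caller and the formula of the gene coverage are not given in the sources used here. Repeated positions were collapsed (28 to 53 a list), and gene coverage values that span a chromosome or several genes were left out.

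Members and lists of partners and markers were chosen with earlier results of these data known. A site belonged to a gene when it lay inside the gene's printed span on its strand. Sites per gene were tested with edgeR 4.0.16 (quasi-likelihood, TMM factors, at least 10 sites over the 4 lists), log2 gene coverage centred on the median gene with limma 3.58.1, and the level at positions in all 4 lists with edgeR on reads with and without A; DESeq2 1.42.0 was an alternative. Every p was adjusted by Benjamini-Hochberg over all genes or positions tested, with a threshold of 0.05. Values per library were compared by exact two-sided permutation (scipy 1.17.1), and shares carry 95% Wilson intervals. R was 4.3.3 and Python 3.11.15. The fits were tested on simulated data.

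Genes named with values had passed a test, were among the 12 with the highest mean coverage or the 5 with the most sites, or had a position with a coverage of at least 20 in all 4 lists or, in both wild-type lists, 50 or more reads and a level reaching 0.5; the remaining genes were named after their values were seen, to complete each family. The 4 libraries carry 1 batch label. Library numbers 1 and 2 recur in both groups, but libraries with the same number did not deviate together (correlation -0.07 for sites per gene and -0.02 for coverage), so the numbers served as names.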

Additional observations from a re-analysis of the deposited data

How the results depend on the processing

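The count of 2 subunit genes that fell in site number was 1 with DESeq2, with a site coverage of at least 50 and with a site level of at least 0.2, 0 with the gene that the lists name and 0 with gene coverage as an offset, and ran from 0 to 2 when 1 library was left out. The count of 1 that rose was 0 under each of those 5 alternatives and ran from 0 to 1. Over all genes, 152 fell and 120 rose; these counts were 22 and 18 with DESeq2, 2 and 8 with the offset, 46 and 38 with the coverage limit, 24 and 19 with the level limit, 115 and 91 with the gene that the lists name, 81 and 60 with the replicate number as a block, and 0 and 0 without the second KO library. With fewer sites or genes these fits test less, and the cause was otherwise not tested. Col1a2 entered neither the fit with the gene that the lists name nor the fit with the offset. None of its 83 sites carries its name, and it has no coverage in the KO lists. Of the sites inside Lama1, 11 of 56 carry that name, and of those inside Itgb5, 12 of 63. The count of 1 subunit gene with higher coverage, Itgb5, was 0 with no centring. Itgb5 did not pass when any 1 library was left out, and without the first wild-type library Itga9 (log2 change 0.88) passed instead. The share of wild-type positions in neither KO list ran from 82.8% to 91.0%, where leaving out a wild-type library means that positions of a single list are counted. With no TMM factors, no filter, a pseudocount of 1, only genes of a mean coverage of at least 10, the most frequent gene value or a variance trend, the counts of subunit genes were as given in the report.

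With the replicate number as a block, 2 subunit genes fell and 1 rose in site number and 1 rose in coverage, as without it, and no call of a subunit gene changed; the calls in coverage over all genes went from 234 and 207 to 413 and 397.

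Signs turned only in genes that passed no test. For site number (log2), Col18a1 was -0.22 with the level limit and -0.76 with the gene that the lists name, Col2a1 -0.45 with the latter, Col4a1 -0.081 with the coverage limit and -0.18 with the level limit, Col9a2 0.50 with the coverage limit, Itga3 -0.25 with the level limit and Lamb1 0.10 with the level limit and 0.053 with the offset. Itga5, at -0.0015, was 0.014 with no filter, 0.12 with the level limit, 0.0044 with the block and 0.28 with the offset. When 1 library was left out, Col18a1 ran from -0.23 to 0.40, Col27a1 from -0.60 to 1.06, Col2a1 from -0.12 to 1.34, Col4a1 from -0.22 to 0.25, Col9a2 from -0.79 to 0.30, Itga3 from -0.041 to 0.87, Itga5 from -0.18 to 0.16 and Lamb1 from -0.80 to 0.23, and Col6a6, tested in 1 such fit, was -0.10. For coverage, Col2a1 ran from -0.21 to 0.13, Col4a2 from -0.020 to 0.24, Itga5 from -0.45 to 0.13 and Itgb1 from -0.031 to 0.26; with no centring 4 genes turned, Col4a2 to -0.0032, Itgb1 to -0.0020, Itgav to -0.11 and Col9a3 to -0.081.

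With 2 libraries a group, no exact test over libraries can reach a p under 0.333, and a left-out fit assumes that the lone library varies like the other group. The lists hold no position under 15 reads, so sites in genes of low coverage are missed.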
